A study of Homo sapiens with 38 samples.

Results

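The 46 genes described here encode proteins that copy chromosomal DNA and supply the nucleotides for it. They comprised 12 genes of origin licensing, 8 of origin firing, 7 of the DNA polymerases and primase, 7 of the sliding clamp, its loader and Okazaki fragment joining, 4 of single-stranded DNA binding and the replication checkpoint, 5 of nucleotide supply and 3 of chromatin assembly behind the fork. They were listed by function, with MCM10 under licensing although it acts at origin firing. Each was read from 1 probe set, the one with the highest mean log2 signal among those that name the gene alone. All 46 had such a probe set and passed the filter on low signal, among 17986 genes tested in all.

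RNA from human melanoma cells treated for 24 h was hybridised to 38 Affymetrix arrays of 1 colour. Of these, 20 were of 16R6-4, a single clone that was derived from A375 and resists GSK2118436, and 18 were of the parental A375 line, which carries an activating BRAF mutation. GSK2118436 (GSK436 here, known as dabrafenib) inhibits the mutant BRAF kinase, and GSK1120212 (GSK212 here, known as trametinib) inhibits MEK, the kinase below BRAF. The 16R6-4 cells gave 3 arrays each with 0.1 µM GSK436, 1 µM GSK436, 10 nM GSK212, 30 nM GSK212 and 10 nM GSK212 combined with 0.1 µM or 1 µM GSK436, and 2 arrays with DMSO, the vehicle. The A375 cells gave 3 arrays each with 10 nM GSK212 and with both combinations, 2 arrays each with 0.1 µM GSK436, 1 µM GSK436 and 30 nM GSK212, and 3 arrays with DMSO. All groups grew in RPMI1640 with serum. Separate cultures are not named in the labels, so p-values cover the spread between arrays, which may be technical, and the number of arrays limits the precision. With 1 clone, a difference between lines is a difference between 16R6-4 and A375, not between resistant and sensitive cells in general.

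Origins of replication are licensed before S phase, from the end of mitosis through the first gap phase, when the origin recognition complex, CDC6 and CDT1 load the MCM helicase onto DNA. Kinases of the S phase, among them the cyclin E kinase and CDC7, then turn the loaded helicase into an active one by adding CDC45 and the GINS complex, and the polymerases, clamp and nucleotide enzymes follow. Many of these genes are transcribed by E2F factors, which the retinoblastoma protein holds back until cyclin D kinases act, and in melanoma cells with mutant BRAF the supply of cyclin D depends on signalling through MEK and ERK.

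Because the genes are known as E2F targets and mostly moved together, their promoters were read for the letters of an E2F site. RefSeq promoter windows around the annotated start (GRCh38.p14) were matched by symbol for 39 of the 46 genes. Each window had 300 bases, 250 before the start and 50 after it. Some genes had several windows, and a run in 1 of them was enough for the gene to count. An E2F site was taken as TTTCCCGC, TTTGGCGC, TTTGCCGC or TTTCGCGC on either strand. Of the 39 genes, 22 (56.4%) held at least 1 such run, against 3.99% of 27305 genes in the table. Counted by window it was 23 of 54 (42.6%), against 3.31% of 35116 windows. The run was found in 13 of the 24 genes that were lower with 10 nM GSK212 in A375 (54.2%) and in 9 of the 15 that were not (60%). The CCAAT box was found in 23 of the 39 genes (59%) and in 39.7% of all genes, and the run TTTGAA or TTCGAA, which is read as a CHR element, in 3 (7.69%) and in 19.5%. A match is a description of the letters and not a bound site. Stretches just before the start are printed for 4 genes whose signal fell in A375 and that hold an E2F run (PCNA, RFC3, UHRF1 and TYMS), for DUT, which holds 2 such runs and was called in no A375 treatment, and for RRM2, whose signal fell and whose stretch holds none. DUT had 4 windows, of which 1 held a run and is the one printed, and PCNA and UHRF1 also had windows without a run. Capitals mark the E2F runs, and each stretch is written 5′ to 3′ on the strand of its gene.
PCNA: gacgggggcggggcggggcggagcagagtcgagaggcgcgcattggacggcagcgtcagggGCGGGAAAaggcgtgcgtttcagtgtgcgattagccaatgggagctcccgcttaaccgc
RFC3: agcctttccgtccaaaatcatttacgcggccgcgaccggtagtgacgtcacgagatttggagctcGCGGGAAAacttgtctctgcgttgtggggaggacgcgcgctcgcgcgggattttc
UHRF1: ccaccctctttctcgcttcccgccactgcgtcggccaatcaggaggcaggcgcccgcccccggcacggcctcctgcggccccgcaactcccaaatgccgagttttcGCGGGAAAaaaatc
TYMS: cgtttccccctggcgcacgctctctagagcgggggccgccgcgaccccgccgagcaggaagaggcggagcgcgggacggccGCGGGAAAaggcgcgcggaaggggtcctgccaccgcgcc
DUT: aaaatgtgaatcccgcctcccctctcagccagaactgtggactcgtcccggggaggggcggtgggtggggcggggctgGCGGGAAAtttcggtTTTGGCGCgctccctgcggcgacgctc
RRM2: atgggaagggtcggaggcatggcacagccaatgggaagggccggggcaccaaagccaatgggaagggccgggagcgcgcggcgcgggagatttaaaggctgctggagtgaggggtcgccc
These stretches lie at chr20:5126623-5126742 (PCNA, minus strand), chr13:33818029-33818148 (RFC3, plus strand), chr19:4909381-4909500 (UHRF1, plus strand), chr18:657533-657652 (TYMS, plus strand), chr15:48332077-48332196 (DUT, plus strand) and chr2:10122619-10122738 (RRM2, plus strand), all upstream of an annotated transcription start. In PCNA, RFC3, UHRF1 and TYMS the capitals spell the same run, GCGGGAAA, which is TTTCCCGC read from the other strand.

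The trimmed mean of the deposited signals was 149.8 to 150 on every array, while the median signal of an array ran from 21.6 to 52.4. Actin control probe sets at the 3′ end read 3.72 to 45 times those at the 5′ end (the actin ratio, high in shortened RNA), and on 15 of the 38 arrays more than 20 times. Its group mean was 7.76 in A375 with DMSO and 10.7 to 37.3 in the A375 drug groups. In 16R6-4 it was 5.47 with DMSO and 8.16 to 22.7 with drug. DUSP6, a phosphatase whose gene is a direct readout of ERK signalling, had signals of 3.23, 38.7 and 20.4 in A375 with 10 nM GSK212, against 2343, 2277 and 2899 with DMSO. In 16R6-4 it had 1036, 1000.04 and 774 with 1 µM GSK436 and 51.8, 68.6 and 60.7 with 10 nM GSK212, against 1828 and 1412 with DMSO. Of the melanocyte lineage markers, MITF had signals of 1029 and 1362 in 16R6-4 and 343, 465 and 283 in A375 with DMSO, whereas PMEL, MLANA, TYR and S100B were at 50.2 or below on every DMSO array of both lines. SOX10 had 2.47 and 2.38 in 16R6-4, against 560.1, 427 and 601 in A375. The summed signal of 3 epithelial markers was 493 to 2178 on the 16R6-4 arrays and 182 to 467 on the A375 arrays, and its part in the differences between lines was not tested.

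In A375, many of the replication genes were lower with every treatment than with DMSO. A gene was called where limma's adjusted p, taken over all 17986 genes, was below 0.05 and the log2 fold change was at least 1 in size. By this rule 22 of the 46 genes were lower with 0.1 µM GSK436 than with DMSO (6.41% of all genes were), 27 with 1 µM GSK436 (7.71%), 28 with 10 nM GSK212 (4.05%), 27 with 30 nM GSK212 (3.44%), 28 with 10 nM GSK212 plus 0.1 µM GSK436 (3.64%) and 32 with 10 nM GSK212 plus 1 µM GSK436 (5.76%). None of the 46 was called higher in any of them, while 11.5%, 11.8%, 7.71%, 6.51%, 7% and 11.3% of all genes were, and 20.1% in at least 1. The treated arrays lay wholly below the DMSO arrays for 37, 40, 39, 42, 39 and 39 of the 46 genes, as they did for 18.5%, 19.9%, 12%, 16%, 13.3% and 15.2% of all genes. The 6 comparisons share the same 3 DMSO arrays. The median log2 fold change of the 46 genes was -0.96, -1.26, -1.16, -1.11, -1.17 and -1.39 in the same order of treatments. Over all genes tested it was 0.38, 0.39, 0.17, 0.23, 0.23 and 0.34, so that the 46 differed from all genes by a log2 difference of -1.35, -1.64, -1.33, -1.34, -1.40 and -1.73. Centring each array on its own median put the median of all genes at -0.43 with 0.1 µM GSK436 and at -0.12 with 10 nM GSK212, and the 46 genes at -1.78 and -1.46.

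**Figure D1:**
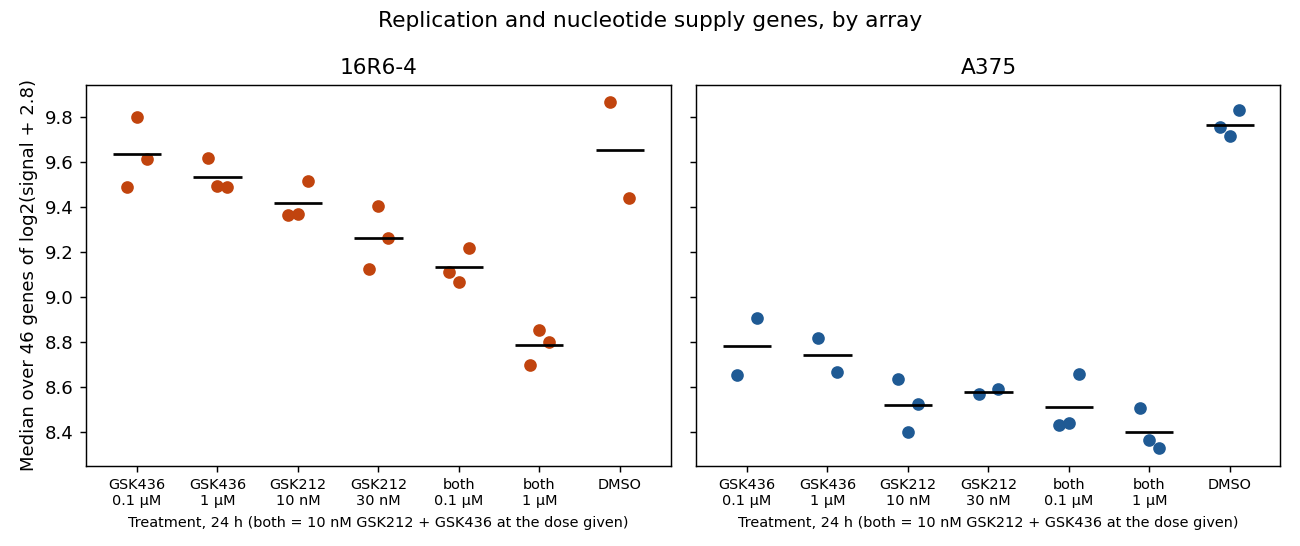
Median over the 46 genes of log2(signal + 2.8) on each array (points), with group means as bars, for 16R6-4 (left) and A375 (right). In A375 the drug groups averaged 8.40 to 8.78, against 9.77 with DMSO; in 16R6-4 they averaged 9.63 and 9.53 with GSK436 alone and 8.78 with 10 nM GSK212 plus 1 µM GSK436, against 9.65 with DMSO.

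The median over the 46 genes on single arrays separated the drug-treated A375 arrays from the DMSO arrays. It lay between 8.33 and 8.91 on all drug-treated A375 arrays, on the scale of log2(signal + 2.8), and at 9.71, 9.75 and 9.83 on the 3 DMSO arrays. Of the A375 arrays with 10 nM GSK212 plus 0.1 µM GSK436, 2 had actin ratios of 4.26 and 4.64, where the DMSO arrays had 4.59 to 12, and their medians of 8.44 and 8.66 lay with those of the other treated arrays. Array 1 of that group had a ratio of 23.1 and a median of 8.43. With GSK436 alone the A375 ratios were 37.2 and 37.5 at 0.1 µM and 23.3 and 32.6 at 1 µM. All of these were above the DMSO arrays, so drug and RNA quality cannot be told apart in those groups. With the log2 actin ratio as a covariate, 19, 30, 27, 26, 27 and 32 of the 46 genes were called lower in the 6 A375 treatments. The share of all genes called in that fit is not given. In bulk RNA, fewer cells in S phase and less of each RNA per cell cannot be told apart. In all, 36 of the 46 genes were called lower in at least 1 A375 treatment (11.9% of all genes were) and 16 in all 6 (1.34%). These 16 were MCM10, MCM2, MCM3 and ORC1 of licensing, CDC45, CCNE2 and GINS1 of firing, the polymerase and primase subunits POLE2 and PRIM1, the loader and clamp genes RFC2, RFC3, RFC4 and PCNA, RPA2, RRM2 and UHRF1. Among them, leaving out 1 array ended a call of CDC45 and RFC4 with 0.1 µM GSK436 (array 2, -0.69 and -0.87), of POLE2 and RFC4 with 1 µM GSK436 (array 3, -0.93 each), of RPA2 and PCNA with 30 nM GSK212 (array 3, -0.97 and -0.85), of GINS1 with 30 nM GSK212 (DMSO array 1 or 2, -0.93 and -0.98) and of MCM2 with the combination at 0.1 µM (array 1, -0.83).

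**Figure D2:**
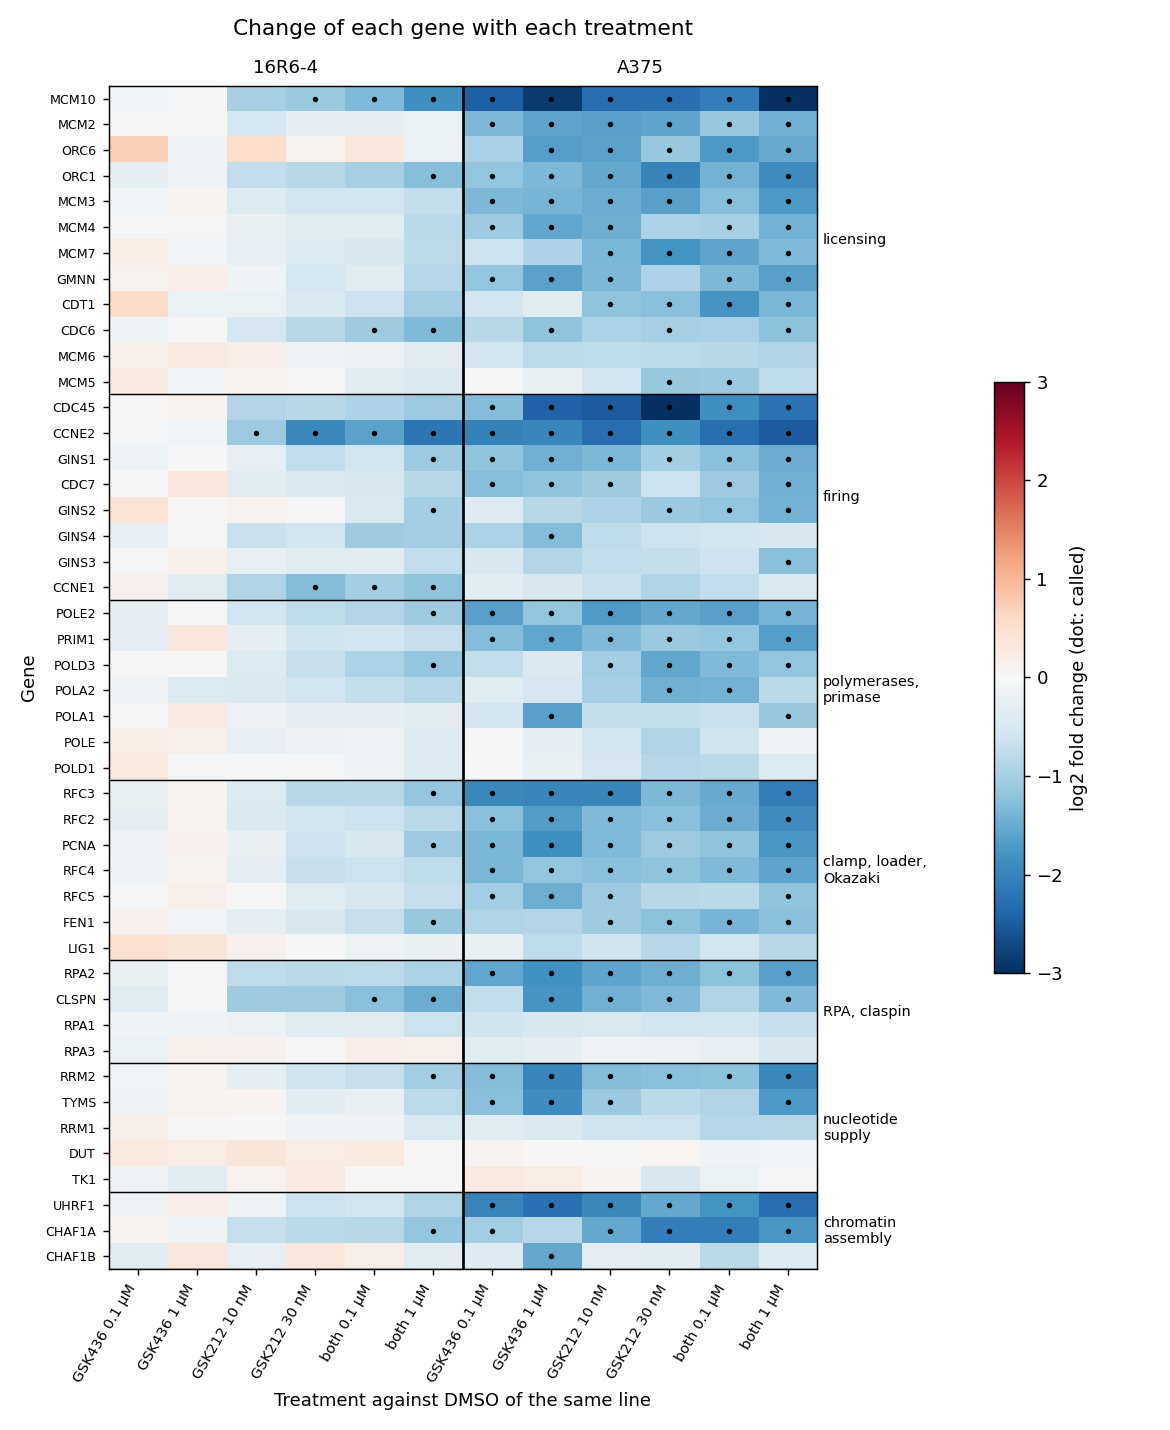
Log2 fold change of each of the 46 genes (rows, grouped by role) with each treatment against DMSO of the same line, for 16R6-4 (left 6 columns) and A375 (right 6 columns); dots mark genes called at adjusted p below 0.05 and a log2 change of at least 1. The 2 columns of GSK436 alone in 16R6-4 hold no dot, and 10 genes hold none in A375.

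Of the 12 licensing genes, 9 were lower in A375 with 10 nM GSK212 and 10 with either combination. MCM10, listed with them although it helps to activate the loaded helicase, had the largest fall of them. Its signal was 126 and 104 with 0.1 µM GSK436, 131 and 55.7 with 1 µM GSK436, 107, 136 and 148 with 10 nM GSK212, 149.8 and 117 with 30 nM GSK212, 113, 155 and 189 with 10 nM GSK212 plus 0.1 µM GSK436 and 77.6, 80.4 and 63 with 10 nM GSK212 plus 1 µM GSK436. With DMSO it was 711, 645 and 578. All treated arrays lay far below the 3 DMSO arrays, and the combination with 1 µM GSK436 was the lowest group apart from 1 array with 1 µM GSK436 alone. The log2 fold change of MCM10 was -2.29 ± 0.23 (SE), adjusted p = 1.45e-09 with 10 nM GSK212 and -3.09 ± 0.23 (SE), adjusted p = 1.85e-12 when 1 µM GSK436 was added to it.

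ORC1, the large subunit of the origin recognition complex, had 125, 109 and 72.3 in A375 with 10 nM GSK212 and 67.3 and 76 with 30 nM GSK212, against 316, 262 and 312 with DMSO. No treated array reached the DMSO arrays, and the log2 fold changes were -1.54 ± 0.27 and -2.01 ± 0.31 (adjusted p = 5.64e-05 and 9.17e-06). CDC6, the loader of the helicase, had 296, 250.2 and 283 with 10 nM GSK212, against 574, 571 and 479 with DMSO. These groups did not overlap either, but the log2 fold change of -0.96 ± 0.17 (adjusted p = 3.69e-05) stopped short of 1, and CDC6 was called lower only with 1 µM GSK436, 30 nM GSK212 and the combination at 1 µM. Its call with 30 nM GSK212 ended without array 1 or 2 of DMSO or array 3 of 30 nM GSK212 (log2 fold changes of -0.96, -0.97 and -0.93).

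The 6 subunits of the MCM helicase ring differed in size of change. MCM2, MCM3, MCM4 and MCM7 had log2 fold changes of -1.62, -1.50, -1.47 and -1.36 with 10 nM GSK212 in A375 and were called. MCM6 had 1689, 1499 and 1490.4 with 10 nM GSK212, against 2555, 2556 and 2800.2 with DMSO. Its fall passed the p threshold in all 6 treatments (10 nM GSK212, -0.76 ± 0.11 (SE), adjusted p = 4e-06) and never reached a log2 change of 1. MCM5 had -0.58 with 10 nM GSK212 (adjusted p = 0.137) and was called with 30 nM GSK212 and the combination at 0.1 µM only. Its signal was 1085, 902 and 451 with 10 nM GSK212 at actin ratios of 15.4, 32.1 and 5.9. With 30 nM GSK212 it was 450 and 587 at 4.76 and 37.1, and with that combination 700, 422 and 493 at 23.1, 4.26 and 4.64. With DMSO it was 1033, 894 and 1589 at 6.65, 4.59 and 12. The part of RNA quality in MCM5 was not tested beyond the actin covariate. Among the other licensing factors, the loader CDT1 and its inhibitor geminin (GMNN) had -1.21 and -1.34, the first ending without array 3 of that dose (-0.84) or DMSO array 3 (-0.99), and ORC6, a subunit of the origin recognition complex, had -1.60.

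Of the 8 firing genes, 4 were lower in A375 with 10 nM GSK212 and 6 when 1 µM GSK436 was added. CDC45, a subunit of the active helicase, had 63.1, 95.7 and 32.8 with 10 nM GSK212 and 88 and 14.7 with 30 nM GSK212, against 342, 330.3 and 357 with DMSO. The treated arrays were all lower and spread widely, while the DMSO arrays lay close together. Its log2 fold change was -2.49 ± 0.41 (SE), adjusted p = 1.69e-05 with 10 nM GSK212 and -3.12 ± 0.46 (SE), adjusted p = 4.64e-06 with 30 nM GSK212, the largest fall of any of the 46 genes there. With 0.1 µM GSK436 it had 90.3 and 212, and the call (log2 fold change -1.29 ± 0.46) ended without any 1 DMSO array (-1.26 to -1.32) or without array 2 of 0.1 µM GSK436 (-0.69).

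CCNE2, which encodes cyclin E2, had 145 and 134 in A375 with 1 µM GSK436, 128, 103 and 105 with 10 nM GSK212 and 93.4, 86.3 and 109.5 with both drugs (GSK436 at 1 µM), against 609.8, 583 and 481 with DMSO. The highest treated A375 array, at 173, was far below the lowest DMSO array. Its log2 fold change was -1.97 ± 0.27 (SE), adjusted p = 1.74e-06, -2.29 ± 0.24 (SE), adjusted p = 7.36e-09 and -2.50 ± 0.24 (SE), adjusted p = 1.3e-09 in that order. CCNE1, which encodes cyclin E1, had 267, 204 and 142 with 10 nM GSK212, against 274, 302 and 384 with DMSO, a log2 fold change of -0.67 ± 0.21 (SE), adjusted p = 0.0167. It was called in none of the 6 A375 treatments, the largest fall being -0.91 with 30 nM GSK212. Of the GINS complex, which joins CDC45 on the helicase, GINS1 had -1.35 with 10 nM GSK212 and was called in all 6 A375 treatments, GINS2 was called in 3, and GINS3 and GINS4 in 1 each. The fall of GINS4 with 1 µM GSK436 (-1.30 ± 0.40) became a change of 0.068 when its probe sets were averaged. The CDC7 kinase gene was called in 5, with -1.08 ± 0.24 with 10 nM GSK212, which ended without DMSO array 2 (-0.97) or array 2 of that dose (-0.99).

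The polymerase and primase genes were mixed. POLE2, a small subunit of polymerase epsilon, had 152, 102 and 140.3 in A375 with 10 nM GSK212, against 462, 471 and 362 with DMSO. The groups did not overlap, with a log2 fold change of -1.70 ± 0.25 (SE), adjusted p = 2.87e-06. PRIM1, the catalytic primase subunit, had -1.33 ± 0.19 and was called in all 6 treatments. The catalytic subunits of polymerases epsilon and delta, POLE and POLD1, had -0.55 ± 0.31 and -0.51 ± 0.25 (adjusted p = 0.224 and 0.158) and were called in none. POLA1, the catalytic subunit of polymerase alpha, was called with 1 µM GSK436 (-1.63 ± 0.25) and with the combination at that dose, POLA2 with 30 nM GSK212 and the combination at 0.1 µM, and POLD3 in 4 treatments.

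Of the 7 clamp, loader and Okazaki genes, 6 were lower with 10 nM GSK212 in A375 and LIG1, the DNA ligase of Okazaki fragments, was not called (-0.60 ± 0.22, adjusted p = 0.0434). PCNA, the sliding clamp, had 1459 and 1292 with 1 µM GSK436 and 1797, 1653 and 2609.7 with 10 nM GSK212, against 5308, 5457 and 4220.4 with DMSO. Every treated array was below the lowest DMSO array, and the log2 fold changes were -1.85 ± 0.23 and -1.33 ± 0.21 (adjusted p = 3.2e-07 and 8.62e-06). RFC3, a subunit of the clamp loader, had 211, 207 and 357 with 10 nM GSK212, against 1087, 1142 and 768 with DMSO, a log2 fold change of -1.96 ± 0.20 (SE), adjusted p = 4.17e-09. The other loader subunits RFC2, RFC4 and RFC5 had -1.33, -1.25 and -1.08, and FEN1, the flap nuclease, had -1.07, or -0.91 without array 3 of that dose.

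Among the genes of single-stranded DNA binding and the checkpoint, RPA2 had 313, 305 and 486 in A375 with 10 nM GSK212, against 1069, 1286 and 909 with DMSO. Its log2 fold change was -1.58 ± 0.25 (SE), adjusted p = 7.68e-06. RPA1 and RPA3, the other subunits of the same trimeric complex, had -0.45 ± 0.13 and -0.10 ± 0.17 and were called in no treatment. CLSPN, which encodes the checkpoint mediator claspin, had 80.8, 46.8 and 45.2 with 10 nM GSK212, against 198, 193 and 97 with DMSO. Array 3 of DMSO, at 97, was below 4 treated arrays of other groups, and the log2 fold change was -1.43 ± 0.34 (SE), adjusted p = 0.00193. With 1 µM GSK436 the change of CLSPN was -1.76 ± 0.38, but -0.44 (adjusted p = 0.372) when all probe sets of the gene were averaged.

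Some of the nucleotide supply genes were called lower in A375 and others were not. RRM2, the regulated subunit of ribonucleotide reductase, had 2919 and 3320.3 in A375 with 0.1 µM GSK436, 2386 and 1643 with 1 µM GSK436, 3066, 2975 and 3324 with 10 nM GSK212, 3387 and 3017 with 30 nM GSK212, 2976, 3243 and 3621 with 10 nM GSK212 plus 0.1 µM GSK436 and 1857, 2286 and 1832 with 10 nM GSK212 plus 1 µM GSK436, against 7910.4, 7947 and 7084 with DMSO. The arrays with 1 µM GSK436, alone or combined, were the lowest, and no treated array exceeded 3621. Its log2 fold change was -1.95 ± 0.17 (SE), adjusted p = 1.91e-10 with 1 µM GSK436 and -1.29 ± 0.15 (SE), adjusted p = 4.41e-08 with 10 nM GSK212. TYMS, thymidylate synthase, had 1802 and 1224 with 1 µM GSK436 and 2135, 2193 and 3318 with 10 nM GSK212, against 5865, 5991 and 4574 with DMSO. Its log2 fold changes were -1.87 ± 0.22 and -1.12 ± 0.19 (adjusted p = 6.47e-08 and 3.48e-05), and the second was -1.12 with an adjusted p of 0.093 when its probe sets were averaged. RRM1, the large reductase subunit, had -0.59 ± 0.14 (adjusted p = 0.00222) and was called in none.

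TK1, the thymidine kinase of the salvage pathway, and DUT, the dUTPase, had the largest positive changes of the 46 genes with 1 µM GSK436 in A375, and neither was far from 0. TK1 had 848 and 909 with 1 µM GSK436 and 1128, 779 and 565 with 10 nM GSK212, against 659, 629 and 1022 with DMSO. These groups overlapped, with log2 fold changes of 0.22 ± 0.27 and 0.08 ± 0.24 (adjusted p = 0.555 and 0.879). The arrays with 10 nM GSK212 had actin ratios of 15.4, 32.1 and 5.9 in that order. With 30 nM GSK212 TK1 had 534 and 545 at ratios of 4.76 and 37.1. When 0.1 µM GSK436 was added to 10 nM GSK212 it had 932, 566 and 517 at 23.1, 4.26 and 4.64. The part of RNA quality in TK1 was not tested beyond the actin covariate. DUT had 6801 and 6765 with 1 µM GSK436 and 6947, 6867 and 6358 with 10 nM GSK212, against 6709.6, 6359.8 and 7222 with DMSO. Its arrays lay within a narrow band and overlapped, with log2 fold changes of 0.01 ± 0.14 and -0.01 ± 0.13 (adjusted p = 0.979 and 0.979). The other probe set of TK1 had -0.19 and those of DUT had -0.42 and -0.25 with 10 nM GSK212. Across all 6 A375 treatments TK1 ranged from -0.48 to 0.29 and DUT from -0.10 to 0.08.

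Of the chromatin assembly genes, UHRF1, which recruits the maintenance DNA methyltransferase to new DNA, had 662 and 587 in A375 with 1 µM GSK436, 706, 644 and 986 with 10 nM GSK212 and 543, 696 and 581 with both drugs (GSK436 at 1 µM), against 3320.1, 3459.8 and 2192 with DMSO. No treated array came above 1047, and no DMSO array below 2192. Its log2 fold change was -2.23 ± 0.23 (SE), adjusted p = 7.86e-09 with 1 µM GSK436 and -1.93 ± 0.21 (SE), adjusted p = 7.24e-09 with 10 nM GSK212. CHAF1A and CHAF1B encode subunits of the chromatin assembly factor CAF-1. CHAF1A was called in 5 treatments, with -1.54 ± 0.22 with 10 nM GSK212, and CHAF1B with 1 µM GSK436 alone (-1.53 ± 0.46), a call that ended without array 3 of that dose (-0.94). The call of CHAF1A with 0.1 µM GSK436 ended without array 2 of that dose (-0.85) or DMSO array 3 (-0.83).

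**Figure D3:**
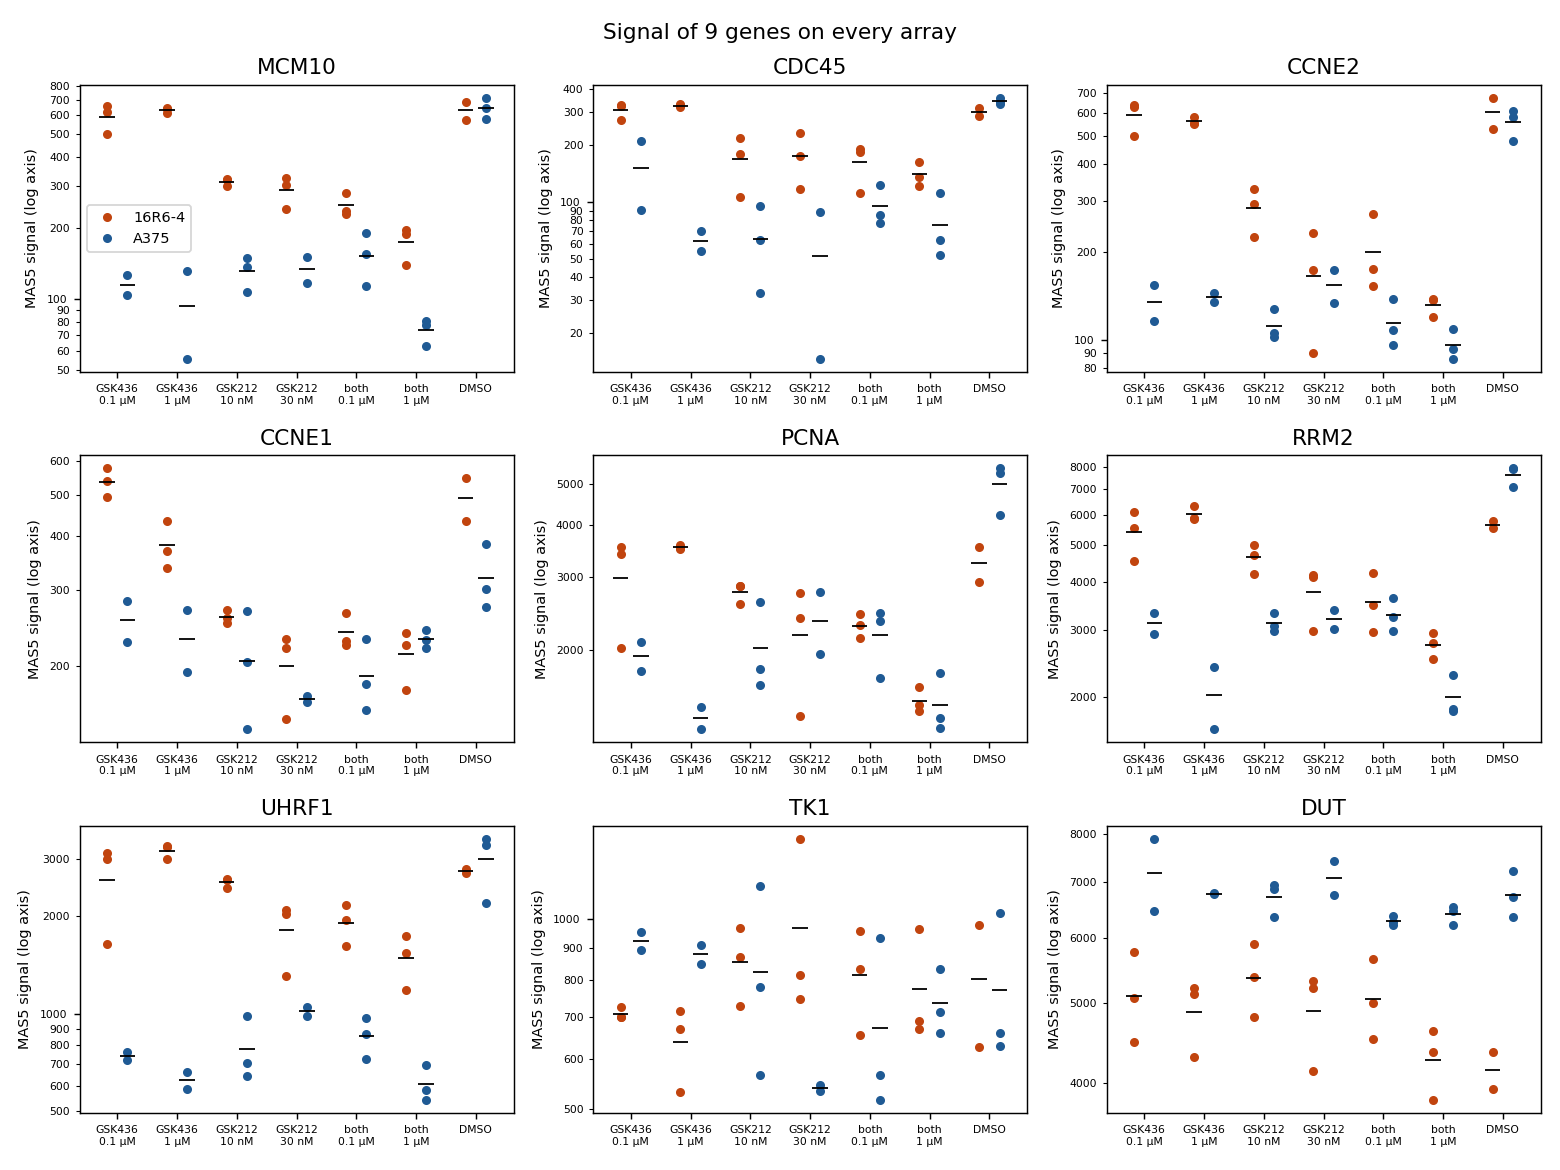
Signal (log axis) of 9 of the genes on every array, by treatment, with 16R6-4 in orange left of A375 in blue and group means as bars. In A375 the drug-treated arrays of MCM10 lie at 189 or below and its DMSO arrays at 578 or above, while TK1 and DUT show no such gap; in 16R6-4 with GSK436 alone MCM10 stays between 501 and 655.

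In 16R6-4, none of the 46 genes was called with GSK436 alone. With 0.1 µM and with 1 µM GSK436, 0 were called by limma (0.00556% and 0.0778% of all genes were, either way), and 2 and 1 had an unadjusted p below 0.05. Here and below, counts at that unadjusted cutoff are given without the share of all genes that passed it, so they have no background beside them. The absence of calls does not show that levels were equal. The 95% intervals of the log2 fold changes lay within 1 either way for 41 of the 46 genes with 0.1 µM and for 43 with 1 µM. They reached as low as -1.26 for CHAF1B with 0.1 µM and -1.01 for CDT1 with 1 µM, and as high as 1.38 for ORC6 with 0.1 µM and 1.28 for CHAF1B with 1 µM. The median log2 fold change of the 46 was -0.06 and 0.02, against 0.10 and 0.05 over all genes. MCM10 had 645, 636 and 614 in 16R6-4 with 1 µM GSK436, against 574 and 685 with DMSO. CDC45 had 329.99, 327 and 319, against 317 and 287. Both drug groups fell inside or next to the range of the 2 DMSO arrays, with log2 fold changes of 0.01 ± 0.25 and 0.11 ± 0.46. RRM2 had 6329, 5846 and 5899 with 1 µM GSK436, against 5539 and 5781 with DMSO, a log2 fold change of 0.09 ± 0.17 with an SE that covers 0. Array 3 with 0.1 µM GSK436 had the lowest values of its group for PCNA (2021), RFC3 (702) and UHRF1 (1642) and its highest actin ratio (37.4), while its median over the 46 genes, 9.61, lay between those of the other arrays.

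With GSK212, alone or combined, part of the set fell in 16R6-4 as well. With 10 nM GSK212, 1 gene was called lower (0.623% of all genes were), with 30 nM 3 (0.945%), with 10 nM plus 0.1 µM GSK436 5 (1.04%) and with 10 nM plus 1 µM GSK436 15 (1.71%), and none was called higher (2.16%, 3.37%, 3.84% and 4.86% of all genes were). The treated arrays lay wholly below the DMSO arrays for 25, 29, 32 and 38 genes (11.7%, 11.2%, 12.5% and 14.9% of all genes). The median log2 fold changes were -0.25, -0.50, -0.52 and -0.82 in the same order, and over all genes 0.17, 0.22, 0.22 and 0.21. These comparisons share the 2 DMSO arrays, whose medians over the 46 genes differed from each other (9.44 and 9.87). The group with the most calls had a low mean actin ratio, 8.16, and with the actin ratio as a covariate it had 14 calls. The count with 10 nM GSK212 was 0 without DMSO array 2 or without array 3 of 10 nM GSK212, and 2 without its array 1 or 2. The count with 10 nM plus 0.1 µM was 3 without DMSO array 1 and 2 without array 2 of that combination. Centring each array on its median gave 5, 15, 15 and 31 calls. The counts after centring, with the covariate or without an array are given without the share of all genes. They have no background beside them.

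CCNE2 was called with all 4 GSK212 treatments of 16R6-4. Its signal was 292, 330.1 and 226 with 10 nM GSK212, 90.3, 174 and 234 with 30 nM GSK212, 271, 153 and 176 with 10 nM plus 0.1 µM GSK436 and 138, 137 and 119.98 with 10 nM plus 1 µM GSK436. With GSK436 alone it was 640.3, 629 and 499 at 0.1 µM and 552, 582 and 552 at 1 µM, and with DMSO 529 and 675. The arrays of the combination at 1 µM lay within the range of the treated A375 arrays, and 1 array with 30 nM GSK212 lay lower. The log2 fold changes were -1.09 ± 0.27, -1.93 ± 0.27, -1.61 ± 0.27 and -2.16 ± 0.27 for the 4 treatments with GSK212 (adjusted p = 0.0135, 6.89e-06, 0.000102 and 5.1e-07). The first call ended without DMSO array 2 (-0.92) or without array 3 of 10 nM GSK212 (-0.94).

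MCM10 was called with 3 of the 4. It had 318, 321 and 301 with 10 nM GSK212, 240.02, 304 and 325 with 30 nM GSK212, 237, 229.5 and 281 with 10 nM plus 0.1 µM GSK436 and 139, 189 and 197 with 10 nM plus 1 µM GSK436, against 574 and 685 with DMSO. All of these arrays lay below both DMSO arrays. The log2 fold change was -1.84 ± 0.25 (SE), adjusted p = 2.17e-06 with the combination at 1 µM and -1.12 ± 0.25 (SE), adjusted p = 0.0035 with 30 nM GSK212. The second call ended without DMSO array 2 or without array 1 of 30 nM GSK212 (-0.99 each).

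CCNE1, which was not called in A375, was called in 16R6-4 with 30 nM GSK212 and both combinations. It had 230.1, 219.97 and 149.99 with 30 nM GSK212 and 223, 176 and 239 with 10 nM plus 1 µM GSK436, against 548 and 434 with DMSO, and the log2 fold changes were -1.30 ± 0.23 and -1.20 ± 0.23 (adjusted p = 0.000222 and 0.000375). At 0.1 µM the call of CCNE1 (-1.02) ended without DMSO array 1 (-0.86) or array 1 or 2 of the combination (-0.98 and -0.99). With all its probe sets averaged, the first 2 changes were -0.72 and -0.03 (adjusted p = 0.359 and 0.983). The other probe set of CCNE1 did not pass the filter on low signal. The difference between the lines in the change of CCNE1 was not past the threshold with any treatment (with 1 µM plus 10 nM, -0.74 ± 0.31, adjusted p = 0.32). CDC6 had 253, 258 and 292 with the combination at 1 µM, against 610.2 and 734 with DMSO, a log2 fold change of -1.32 ± 0.19 (SE), adjusted p = 3.61e-06. CLSPN had 81.9, 69.7 and 65.4, against 179 and 235, with -1.48 ± 0.38 (SE), adjusted p = 0.00812, a call that ended without DMSO array 2 (-1.28, adjusted p = 0.137). ORC1 had 112, 127 and 100.1, against 304 and 254, with -1.28 ± 0.31 (SE), adjusted p = 0.00399, which ended without DMSO array 1 (-1.15, adjusted p = 0.0759). The other genes called with this combination were POLD3, RFC3, CHAF1A, FEN1, PCNA, GINS1, POLE2, RRM2 and GINS2, with log2 fold changes of -1.17 to -1.01. Leaving out 1 array ended the call of CHAF1A (DMSO array 1, -0.84), of PCNA (DMSO array 2, -0.95), of GINS2 (DMSO array 1, -0.89, or array 1 of the combination, -0.91), of POLE2 (DMSO array 2, or array 3 of the combination, -0.98) and of RRM2 (array 3 of the combination, -0.99).

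The difference between lines was tested for each treatment as the change in 16R6-4 minus the change in A375, so that a positive value means a less negative or a more positive change in 16R6-4. With 0.1 µM GSK436, 19 of the 46 genes had a called difference (1.9% of all genes had a positive one), with 1 µM GSK436 25 (5.48%), with 10 nM GSK212 12 (0.928%), and with 30 nM GSK212, 10 nM plus 0.1 µM and 10 nM plus 1 µM 2, 2 and 2 (0.411%, 0.456% and 0.662%). All were positive. The median difference over the 46 genes was 0.97, 1.26, 0.87, 0.65, 0.68 and 0.55 in this order, against -0.14, -0.26, 0.04, 0.02, 0.04 and -0.05 over all genes. The largest differences with 1 µM GSK436 were those of MCM10 (2.88 ± 0.36 (SE), adjusted p = 1.44e-06), CDC45 (2.53 ± 0.65, adjusted p = 0.00821), UHRF1 (2.43 ± 0.33 (SE), adjusted p = 6.14e-06), RFC3 (2.06 ± 0.32) and RRM2 (2.04 ± 0.24 (SE), adjusted p = 4.86e-07). The call of CDC45 ended without array 3 of 1 µM GSK436 in A375 (2.36, adjusted p = 0.0571), and that of RFC3 with its probe sets averaged (2.10, adjusted p = 0.0728). The mean actin ratio was 37.3 and 27.9 in A375 with 0.1 and 1 µM GSK436, against 7.76 with DMSO. In 16R6-4 it was 19.9 and 10.9, against 5.47, so RNA quality was unequal between the lines in these comparisons. Its part was not tested beyond the actin covariate, with which the counts for GSK436 alone stayed within 1.5 times.

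**Figure D4:**
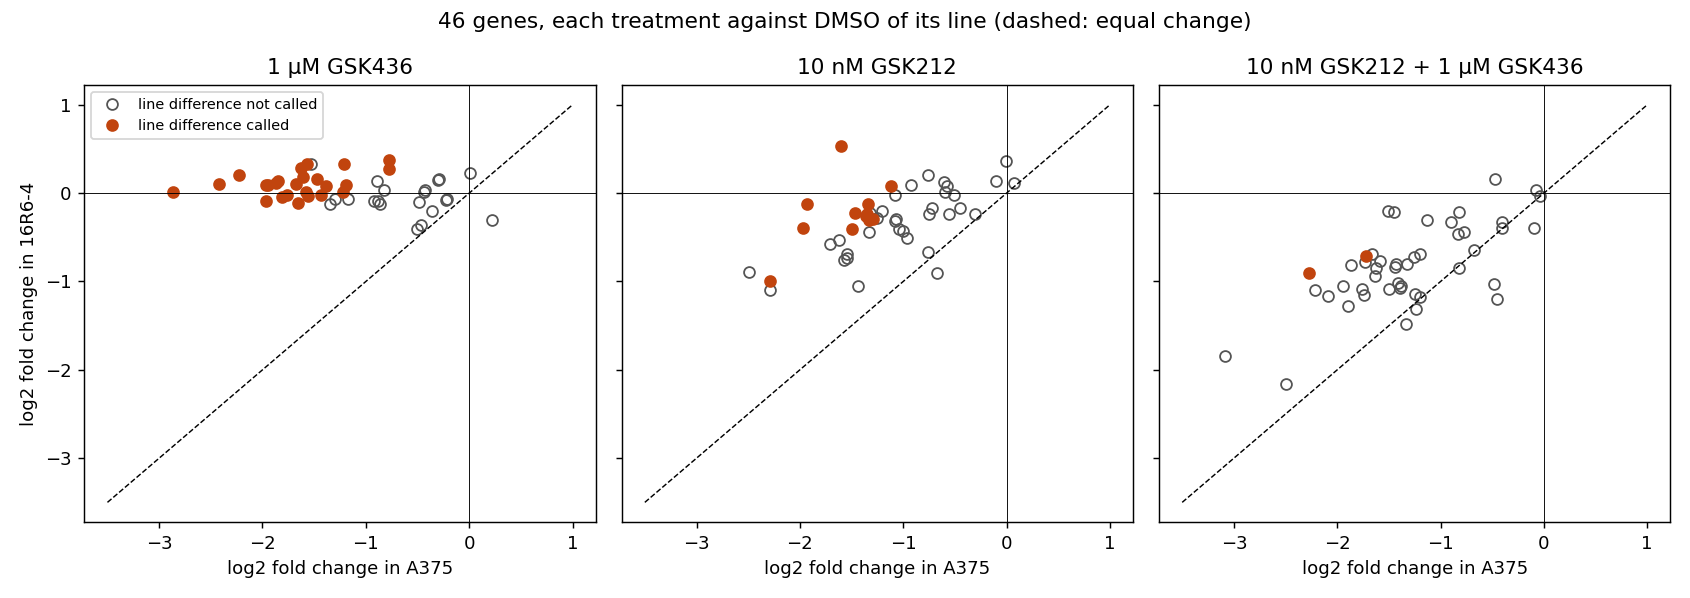
Log2 fold change of each of the 46 genes against DMSO in 16R6-4 (vertical axis) and in A375 (horizontal axis) with 1 µM GSK436, 10 nM GSK212 and 10 nM GSK212 plus 1 µM GSK436; filled points are genes with a called difference between lines and the dashed line marks equal change. With 1 µM GSK436 the points spread along the horizontal axis at a 16R6-4 change near 0 (25 filled), and with the combination they lie nearer the dashed line (2 filled). The mean actin ratio with 1 µM GSK436 was 27.9 in A375 and 10.9 in 16R6-4.

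UHRF1 and MCM3 had a called difference between lines with 5 of the 6 treatments and ORC6 with 4. These were singled out after their values were seen. UHRF1 in 16R6-4 had 2581, 2606 and 2439 with 10 nM GSK212, against 2718 and 2801 with DMSO, where the A375 arrays had fallen to a range of 644 to 986. The difference was 1.81 ± 0.31 (SE), adjusted p = 0.000473, and 1.66 (adjusted p = 0.15) with each array centred on its median. MCM3 in 16R6-4 had 721, 958 and 861 with 10 nM GSK212, against 1263 and 986 with DMSO, and in A375 549, 533 and 489, against 1435, 1383 and 1633. Its difference was 1.09 ± 0.26 (SE), adjusted p = 0.0145, and the call ended without DMSO array 2 (0.91) or array 2 of 10 nM GSK212 (0.99) of 16R6-4 and with each array centred on its median (0.93). ORC6 in 16R6-4 had 2161, 1222 and 2779 with 10 nM GSK212, against 1621 and 1112 with DMSO, and in A375 475, 546 and 488, against 1366, 1533 and 1704. The difference between lines was 2.13 ± 0.43 (SE), adjusted p = 0.00317, becoming 1.86 (adjusted p = 0.0505) without DMSO array 2 of 16R6-4. The actin ratios of the 16R6-4 arrays were 27.4, 13.7 and 27.1 with 10 nM GSK212, against 6.98 and 3.95 with DMSO. With 0.1 µM GSK436, ORC6 in 16R6-4 had 1317, 2393 and 3478 at ratios of 4.65, 17.8 and 37.4. With 30 nM GSK212 it had 1750, 1901 and 905 at 45, 12.6 and 4.54. Drug and RNA quality cannot be told apart for this probe set there.

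Several of these counts turned on single arrays. With 0.1 µM GSK436 the count of 19 was 10 and 11 without array 2 or array 3 of A375 with that dose, 11 without A375 DMSO array 1, 12 without 16R6-4 DMSO array 1, and 12 and 11 without array 1 or 2 of 16R6-4 with that dose. With 10 nM GSK212 the count of 12 was 7 without array 2 of A375 with that dose or without DMSO array 2 of 16R6-4, and 1 with each array centred on its median. With 30 nM GSK212 and with the combinations the counts of 2 were 0 to 3, 1 to 3 and 0 to 2 over the arrays left out.

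Without drug, none of the 46 genes was called between the lines, which does not show that levels were equal. In 16R6-4 with DMSO against A375 with DMSO, limma called 0 of the 46 (3.63% of all genes), and 8 had an unadjusted p below 0.05. With so low a share over all genes, 0 of 46 is not a result about these genes. The median log2 fold change was -0.11, against -0.09 over all genes. An adjusted p below 0.05 with a smaller change was found for GINS2, with 773 and 654 in 16R6-4 against 1083, 1035 and 1545 in A375 (log2 fold change -0.75 ± 0.23, adjusted p = 0.0402), and for DUT, with 4362 and 3934 against 6709.6, 6359.8 and 7222 (-0.70 ± 0.14, adjusted p = 0.00101). It was also found for MCM6, with 1962 and 1898 against 2555, 2556 and 2800.2 (-0.45 ± 0.13, adjusted p = 0.0269). In all 3 the groups did not overlap, and 16R6-4 was the lower.

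The combinations were also set against each drug alone. In 16R6-4, 10 nM GSK212 plus 1 µM GSK436 gave 18 genes lower than 1 µM GSK436 alone (1.46% of all genes), with a median log2 fold change of -0.88, and at 0.1 µM GSK436 4 were lower (1.17%). The largest were CCNE2 (-2.07 ± 0.24, adjusted p = 1.53e-07) and MCM10 (-1.85 ± 0.23, adjusted p = 2.94e-07) at 1 µM. With the median of all genes subtracted, these changes were -2.21 and -1.99. Adding 1 µM GSK436 to 10 nM GSK212 in 16R6-4 left 2 genes lower than with GSK212 alone (0.189% of all genes). These were GINS2, with 305, 404 and 350.3 against 742, 666 and 893 (-1.11 ± 0.20 (SE), adjusted p = 0.00135), whose size fell just short of the threshold without array 3 of 10 nM GSK212, and CCNE2 (-1.07 ± 0.24 (SE), adjusted p = 0.0148), a call that ended without array 1 or 2 of 10 nM GSK212 or array 1 or 3 of the combination. The count was 1 without any array of either group except array 2 of the combination. For the 46 genes the median was -0.50. With the median of all genes subtracted, GINS2 and CCNE2 had -1.13 and -1.09 here.

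In A375, 10 nM GSK212 plus 0.1 µM GSK436 gave 2 genes lower than 0.1 µM GSK436 alone (0.445% of all genes), POLA2 (-1.05 ± 0.26 (SE), adjusted p = 0.0385) and CHAF1A (-1.03 ± 0.25 (SE), adjusted p = 0.035). That count was 0 without array 2 or 3 of 0.1 µM GSK436 or array 2 or 3 of the combination, and 5 without array 1 of the combination. The actin ratios were 37.2 and 37.5 with 0.1 µM GSK436 and 23.1, 4.26 and 4.64 with the combination. With the actin ratio as a covariate the count was 0. Drug and RNA quality cannot be told apart in this comparison. The combination at 1 µM against 1 µM GSK436 alone, both combinations against 10 nM GSK212, and the higher against the lower dose of either drug gave 0 calls by limma among the 46 in A375, with 8, 4, 9, 9 and 6 genes at an unadjusted p below 0.05. Of all genes, 0.0167%, 0.00556%, 0.345%, 0.256% and 0% were called there, either way. In 16R6-4 the combination at 0.1 µM against 10 nM GSK212, and the higher dose against the lower of GSK436 and of GSK212, gave 0 calls as well, with 10, 5 and 9 genes at an unadjusted p below 0.05 (0.00556%, 0.111% and 0% of all genes were called). The percentages in this paragraph are of adjusted calls and are no background for the counts at an unadjusted p.

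Other genes of the pathway, taken from 2 lists by function, were read in the same fit. Of 38 other replication factors, 13 were lower and 2 higher in A375 with 10 nM GSK212, with a median log2 fold change of -0.87. The shares of all genes called lower and higher with that treatment are given above, with the first counts for A375. The share called higher there exceeded 2 of 38, so the 2 higher genes do not set this list apart. CDC25A, a phosphatase that activates cyclin-dependent kinases, had -2.73 ± 0.25 (SE), adjusted p = 4.14e-10, and MCMBP, a partner of the MCM complex, -2.13 ± 0.31 (SE), adjusted p = 3.01e-06. DSCC1, TIPIN and DBF4, the last being the activator of CDC7, had -1.68, -1.57 and -1.51. The 2 that rose were POLD4, the smallest subunit of polymerase delta (2.00 ± 0.26 (SE), adjusted p = 4.17e-07), and RNASEH2C (1.05 ± 0.21 (SE), adjusted p = 0.00025). POLD4 also rose with 1 µM GSK436 in A375 (2.08 ± 0.29) and with 10 nM plus 1 µM in 16R6-4 (1.51 ± 0.29, adjusted p = 0.000376).

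Of 31 other genes of nucleotide metabolism, 8 were lower in A375 with 10 nM GSK212 and none higher, with a median of -0.60. NT5E, the cell-surface nucleotidase, had -4.59 ± 0.68 (SE), adjusted p = 3.51e-06, CTPS1, the CTP synthase, -2.01 ± 0.17 (SE), adjusted p = 7.58e-11, and MTHFD2, a mitochondrial folate enzyme, -1.69 ± 0.15 (SE), adjusted p = 2.18e-10. DCK, the deoxycytidine kinase, and PRPS2, a phosphoribosyl pyrophosphate synthetase, had -1.40 and -1.38. In 16R6-4 with 1 µM GSK436, 0 of the 38 and 0 of the 31 were called by limma, with 1 and 1 at an unadjusted p below 0.05. The 95% intervals lay within a log2 fold change of 1 either way for 30 of the 38 and 25 of the 31, so larger changes of the others remain possible. With 10 nM plus 1 µM in 16R6-4, 5 and 3 were lower, CDC25A (-2.15 ± 0.28) and NT5E (-3.65 ± 0.76) among them. The shares of all genes called in these comparisons are given above, with the counts for each line.

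More than 1 probe set named 26 of the 46 genes, and for 25 of these another passed the filter. In A375 with 10 nM GSK212, all other probe sets had the sign of the one used in 20 genes, and in 5 (CHAF1A, GINS2, GINS4, RFC5 and TK1) at least 1 had the opposite sign. The other CHAF1A probe sets ranged from -1.76 to 2.24 in log2 fold change and those of GINS4 from -2.40 to 0.52. The probe sets of ORC6, CDT1 and DUT are of a type (_x_at) whose probes can match more than 1 transcript, so signal from related transcripts in them cannot be told apart. Others, those of MCM10, CDC45 and RRM2 among them, are of the _s_at type, which can also match more than 1 transcript.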

How the data were processed

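The deposited values were intensity signals, 1 per probe set and array. Per the submitters' processing notes they came from MAS5, whose version and settings are not given in the sources used here. The labels' protocols give biotinylated cRNA from 500 ng of total RNA. The arrays share 1 trimmed mean, so every change is relative to the other probe sets of an array. The genes and lists were chosen with earlier results of these data known.

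From the signals, log2(signal + 2.8) was taken, 2.8 being the 10th percentile of all values. Of 54675 probe sets, 41097 named 1 gene in the platform annotation, 1801 several and 11777 none, and only the first were used. Each gene was read from its probe set with the highest mean log2 signal. Genes above the pooled median of 34.9 on at least 2 arrays were kept, leaving 17986 of 19775. All 14 groups entered 1 limma fit (lmFit and eBayes with a mean-variance trend, version 3.58.1 in R 4.3.3) with 24 residual degrees of freedom, from which 31 comparisons were drawn, with Benjamini-Hochberg adjustment over all genes within each. Fold changes are on the log2(signal + 2.8) scale, which understates the change of low genes, and SE are those of the fit. Figures used Python 3.11.15 and matplotlib 3.10.9.

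Values on every array are given for the gene of each role with the most negative change with 10 nM GSK212 in A375, for up to 6 genes called in 16R6-4 or between the lines with DMSO, and for the 2 with the largest positive change with 1 µM GSK436 in A375. ORC6, MCM3 and others given so were added after their values were seen. Arrays of a group correlated at 0.846 to 0.937 over all genes (34 pairs) and none were identical. The fit was tested on simulated data. For 10 nM GSK212 in A375 it called 47 of 100 genes given a log2 change of 1.5 and 4 of 17786 given none. For the line difference with 1 µM GSK436 it called 26 of 100 given 1.5, so changes of this size can go uncalled. Same-numbered arrays of different groups did not deviate together (mean r of -0.003 over 105 pairs, 0.002 over 204 differently numbered pairs), so the numbers were not used as pairs. Alternatives were quantile normalization, centring on the array median, another pseudocount, no filter, the mean of all probe sets, the replicate number as a block, the actin ratio as a covariate, only the groups compared, and leaving out each array.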

Additional observations from a re-analysis of the deposited data

Results flagged for a closer look

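The results here are differences between the lines that passed the test of the difference itself, each the log2 change in 16R6-4 minus that in A375. They numbered 19 of the 46 genes with 0.1 µM GSK436, 25 with 1 µM GSK436, 12 with 10 nM GSK212, and 2 each with 30 nM GSK212 and with the combinations at 0.1 µM and 1 µM GSK436. At both doses of GSK436 alone the mean actin ratio was higher in A375 than in 16R6-4. With 0.1 µM GSK436 the difference was 2.37 for MCM10, 2.00 for CCNE2, 1.83 for UHRF1, 1.72 for RFC3, 1.70 for ORC6, 1.37 for POLE2, 1.33 for RPA2, 1.27 for MCM3 and 1.22 for RRM2. With 1 µM GSK436 it was 2.88 for MCM10, 2.53 for CDC45, 2.43 for UHRF1, 2.06 for RFC3, 2.04 for RRM2, 1.88 for CCNE2, 1.76 for RPA2, 1.75 for CLSPN, 1.55 for ORC6, 1.47 for MCM3 and 1.23 for CDC6. With 10 nM GSK212 it was 2.13 for ORC6, 1.81 for UHRF1, 1.57 for RFC3, 1.29 for MCM10, 1.09 for MCM3 and 1.00 for RRM2. With 30 nM GSK212 it was 1.06 for MCM3. With 10 nM GSK212 plus 0.1 µM GSK436 it was 2.03 for ORC6 and 1.24 for UHRF1, and with 10 nM plus 1 µM it was 1.37 for UHRF1 and 1.01 for MCM3. Leaving out single arrays ended some of these calls. With 0.1 µM GSK436 that of POLE2 and that of RPA2 each ended in 8 of 10 omissions and that of ORC6 in 3. With 1 µM GSK436 those of CDC45 and RPA2 ended without array 3 of A375 with that dose (2.36 and 1.27), that of ORC6 without the same array (1.51) or DMSO array 2 of 16R6-4 (1.27), and that of CLSPN in 6 of 10. With 10 nM GSK212 those of MCM10 (9 of 11), RRM2 (7), MCM3 (2) and ORC6 (1) ended. With 30 nM GSK212 that of MCM3 ended in 8 of 10, and with the combination at 1 µM in 10 of 11. UHRF1 lost its call in 8 of 11 omissions with the combination at 0.1 µM and in 6 of 11 at 1 µM, and ORC6 without DMSO array 2 of 16R6-4 (1.76) at 0.1 µM.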

How the results depend on the processing

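Counts of called genes among the 46 moved by more than 1.5 times as follows. They are given without the share of all genes called under the same alternative, and the cause was not tested. With each array centred on its median they were 40 and 42 in A375 with 0.1 and 1 µM GSK436, and 5, 15, 15 and 31 in 16R6-4 with 10 nM GSK212, 30 nM GSK212 and the combinations at 0.1 and 1 µM. The line differences were then 11 with 0.1 µM GSK436 and 1 each with 10 nM GSK212, 30 nM GSK212 and the combination at 1 µM. The combination at 0.1 µM against 0.1 µM GSK436 in A375 gave 0 with a median of 0.18 in place of -0.17, and the combination at 1 µM against 10 nM GSK212 in 16R6-4 gave 1. Quantile normalization gave, in 16R6-4, 2 for the combination at 0.1 µM and 0 for 10 nM GSK212, 4 for the combination at 0.1 µM against 0.1 µM GSK436 and 1 for 1 against 0.1 µM GSK436 in A375. The mean of all probe sets gave 0 with 10 nM GSK212 in 16R6-4, 12, 7, 1 and 1 line differences with 0.1 µM GSK436, 10 nM GSK212, 30 nM GSK212 and the combination at 0.1 µM, and 0 for the combination at 0.1 µM against 0.1 µM GSK436 in A375 and at 1 µM against 10 nM GSK212 in 16R6-4. It also turned GINS4 with 1 µM GSK436 in A375 to 0.068, against -1.30. The actin covariate gave 19, 5 and 8 line differences with 10 nM GSK212, 30 nM GSK212 and the combination at 0.1 µM, 0 for that combination against 0.1 µM GSK436 and 1 for 1 against 0.1 µM GSK436 in A375, and 4 for the combination at 1 µM against 10 nM GSK212 in 16R6-4. Array weights, an alternative chosen after seeing the data, gave 5 with 30 nM GSK212 in 16R6-4, 4 and 9 line differences with the combinations at 0.1 and 1 µM, and 4 for the combination at 0.1 µM against 0.1 µM GSK436 in A375. Fits of only the groups compared gave 2 and 1 in 16R6-4 with 10 and 30 nM GSK212, 6, 0 and 6 line differences with 0.1 µM GSK436, 30 nM GSK212 and the combination at 1 µM, and 4 for the combination at 0.1 µM against 0.1 µM GSK436. The larger pseudocount of 9.9 gave 1 line difference with the combination at 1 µM, and no filter gave 1 with 30 nM GSK212.

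With the replicate number as a block, the line differences with 30 nM GSK212 numbered 1 in place of 2, and the other 30 counts stayed within 1.5 times.

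Leaving out 1 array gave 19 to 21, 25 to 28, 25 to 30, 23 to 26, 26 to 31 and 30 to 32 genes in the 6 A375 treatments. In 16R6-4 it gave 0 to 2 with 10 nM GSK212, 3 with 30 nM, 2 to 5 with the combination at 0.1 µM and 12 to 16 at 1 µM. The line differences were 10 to 21, 19 to 27, 7 to 13, 0 to 3, 1 to 3 and 0 to 2. The combination at 0.1 µM against 0.1 µM GSK436 gave 0 to 5 in A375 and 3 to 6 in 16R6-4, that at 1 µM against 1 µM GSK436 gave 16 to 18 in 16R6-4 and against 10 nM GSK212 1 to 2, and 1 against 0.1 µM GSK436 gave 0 to 1 in A375.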
